A study of Mus musculus with 11 samples.

Results

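The genes described here are 10 genes of bone morphogenetic protein (BMP) signalling among the 36666 genes of the count table, found by their symbols. They are the ligand Bmp6, the extracellular antagonist Chrdl1, the receptors Bmpr2 and Acvrl1 with the co-receptor Eng, the receptor SMAD Smad1, the inhibitory SMADs Smad6 and Smad7, and the target genes Id1 and Id3. They were chosen with the difference between Polg mutator and control mice in view, so that difference is given below as a description, and where a member is said to be called by edgeR this is no independent test of it. All 10 passed the filter on low counts, which left 17983 genes.

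Cerebral RNA had been sequenced from 11 male mice, each 1 year old. The 7 mutator mice carried the knock-in allele of Polg, the mitochondrial DNA polymerase, on both chromosomes (D257A/D257A), which removes the proofreading activity of the enzyme. The 4 controls were littermates, of which 3 were WT/WT (mice 205, 239 and 246) and 1 was WT/D257A (mouse 237). No mouse had received a treatment, the allele is present in every cell of the body, and its base change cannot be read from counts per gene. Between 28249345 and 121182250 reads per mouse were counted on genes, with the smallest and the largest library among the controls. The tissue was bulk cerebrum, in which neuronal markers summed to between 5477 and 5989 CPM (counts scaled to the size of the library) over all mice, and markers of the choroid plexus to between 514 and 755 CPM.

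BMP ligands bind a complex of type I and type II receptor kinases, which phosphorylates the receptor SMADs (Smad1, Smad5 and Smad9). These enter the nucleus with Smad4 and turn on targets such as the Id genes and, as a feedback, the inhibitory SMADs Smad6 and Smad7. In blood vessels the type I receptor Acvrl1 (ALK1), the type II receptor Bmpr2 and the co-receptor endoglin, encoded by Eng, carry the response of endothelial cells to circulating BMP9 and BMP10, and mutations of ENG and ACVRL1 cause hereditary haemorrhagic telangiectasia. Secreted proteins of the chordin family, to which the product of Chrdl1 belongs, bind BMP ligands outside the cell, and in the brain Chrdl1 is made largely by astrocytes.

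Smad6, Eng and Id1 were higher in the mutator mice than in the controls and Chrdl1 was lower, whereas the other 6 members differed by less than 0.1 on the log2 scale. Of the 10 members, 4 passed an adjusted p-value of 0.05 in edgeR, 3 higher and 1 lower, where 1.24% of all genes tested did so (0.439% higher and 0.801% lower). In the same 4 members the CPM of every mutator lay on 1 side of all controls, which was the case for 2.62% of all genes. Since these values led to the choice of the members, nothing is read from the 2 counts. In whole tissue, more RNA per cell and more cells of the type that makes it cannot be told apart.

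**Figure D1:**
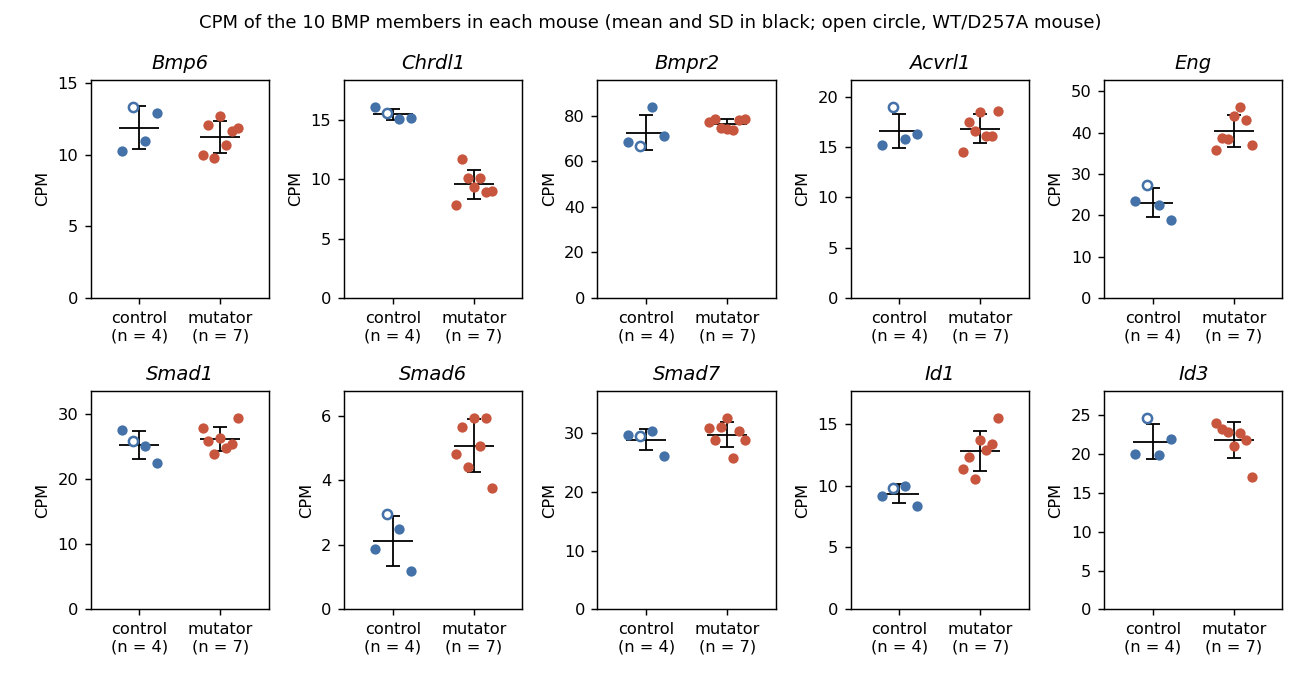
CPM (vertical axes, from 0) of the 10 members in each of 4 control and 7 mutator mice, with the mean and SD in black and the WT/D257A control as an open circle. The groups are apart for Smad6, Eng, Id1 and Chrdl1, and they overlap for the other 6 members.

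Among the extracellular members, the ligand gene Bmp6 did not separate the groups. Bmp6 had 10.2, 13.3, 11.0 and 12.9 CPM in control mice 205, 237, 239 and 246, and 9.80, 11.7 and 12.7 CPM as the lowest, median and highest value of the 7 mutators. Its log2 fold change was -0.07 (SE 0.09), with an interval of 2 SE on either side of -0.25 to 0.11.

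Chrdl1, the antagonist, had 16.1, 15.6, 15.1 and 15.2 CPM in control mice 205, 237, 239 and 246. The 7 mutators lay at 7.86 CPM (mouse 207), 8.95 CPM (mouse 248), 9.01 CPM (mouse 249), 9.35 CPM (mouse 236), 10.1 CPM (mice 217 and 240) and 11.8 CPM (mouse 211). Every mutator was below every control, and the controls spread less (15.5 ± 0.476, SD, n = 4) than the mutators (9.59 ± 1.23, SD, n = 7). The mutator level of Chrdl1 was 0.617 times that of the controls, a log2 fold change of -0.70 (SE 0.08). Chrdl1 lies at chrX:139720217-139828805 on the minus strand of mm9, and no exon of another gene overlaps its exons.

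Of the receptors, Bmpr2, the type II receptor, was the most abundant member per length of transcript. It had 68.6, 66.6, 83.8 and 71.0 CPM in control mice 205, 237, 239 and 246 and between 73.9 and 78.7 CPM in the mutators, with a median of 77.2. The log2 fold change of Bmpr2 was 0.08 (SE 0.05). Acvrl1, its type I partner, had 15.3, 19.0, 15.8 and 16.4 CPM in the same controls, and its lowest, median and highest values in the mutators were 14.6, 16.6 and 18.6 CPM. The log2 fold change of Acvrl1 was 0.02 (SE 0.08), and the groups overlapped for both receptors.

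Eng, the co-receptor, was higher in every mutator. Control mice 205, 237, 239 and 246 had 23.4, 27.4, 22.4 and 18.9 CPM of Eng. The mutators had 35.9 CPM in mouse 207, 37.1 in mouse 249, 38.4 in mouse 217, 38.6 in mouse 211, 43.0 in mouse 248, 44.1 in mouse 236 and 46.2 in mouse 240. The lowest mutator was above the highest control, which was the WT/D257A mouse. Eng was 1.75 times as high in the mutators, a log2 fold change of 0.81 (SE 0.09). Taken against Acvrl1 and per length of transcript, the level of Eng was 1.53 ± 0.179 times that of Acvrl1 in the controls (SD, n = 4) and 2.66 ± 0.321 times in the mutators (SD, n = 7).

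Smad1, the receptor SMAD among the members, had 27.5, 25.9, 25.1 and 22.5 CPM in control mice 205, 237, 239 and 246, and 23.9, 25.9 and 29.3 CPM as the lowest, median and highest mutator. Its log2 fold change was 0.05 (SE 0.06). The groups overlapped between 23.9 and 27.5 CPM.

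Of the 2 inhibitory SMADs, Smad6 was higher in every mutator and the groups overlapped for Smad7. Smad6, which competes for binding to the activated SMADs and their receptors, had 1.86, 2.97, 2.48 and 1.20 CPM in control mice 205, 237, 239 and 246. In the mutators Smad6 had 3.77 CPM in mouse 249, 4.41 in mouse 217, 4.83 in mouse 207, 5.07 in mouse 240, 5.65 in mouse 211 and 5.92 in mice 236 and 248. Every mutator was above every control, and the WT/D257A mouse was again the highest control. Smad6 was 2.36 times as high in the mutators, a log2 fold change of 1.24 (SE 0.18), the largest of the 10 members. In the controls it was also the least abundant member per length, and it rested on between 33 and 550 reads per mouse.

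Smad7, the other inhibitory SMAD, also blocks the TGF-beta branch. Smad7 had 29.7, 29.5, 30.3 and 26.2 CPM in control mice 205, 237, 239 and 246 and between 25.8 and 32.5 CPM in the mutators, with a median of 30.4. Its log2 fold change was 0.04 (SE 0.06). The level of Smad6 per length was therefore 0.105 ± 0.0342 times that of Smad7 in the controls (SD, n = 4) and 0.246 ± 0.0401 times in the mutators (SD, n = 7), with no overlap between 0.0660 to 0.145 and 0.188 to 0.283.

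Smad6 lies at chr9:63800953-63869866 on the minus strand of mm9. To show the sequence at its start, the promoters of the members in RefSeq (GRCm38.p6) were searched on both strands, 250 bases before and 50 bases after the annotated start. Promoters of 6 of the 10 members were searched, namely Bmp6, Bmpr2, Eng, Id3, Smad1 and Smad6. None was at hand for Acvrl1, Chrdl1 and Id1. Smad7 was left out of the search, so whether its promoter holds any of the elements is not known here. The letters searched were the palindromic SMAD-binding element GTCTAGAC and the GC-rich SMAD element GGCGCC, and also the bipartite BMP response element, which contains GGCGCC. The 30 bases around each match follow, with the matched letters in capitals.
Smad6: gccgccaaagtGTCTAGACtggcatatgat
Bmpr2: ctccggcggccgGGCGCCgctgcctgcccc

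The Smad6 stretch is chr9:64022045-64022074 on the minus strand, with the element beginning 4 bases before the annotated start. The palindrome was present in 70 of 32851 promoters (0.213%), and among the 6 member promoters searched, which lack that of Smad7, in that of Smad6. The Bmpr2 stretch is chr1:59764162-59764191 on the plus strand, and GGCGCC was present in 3898 of the promoters (11.9%). The bipartite element was present in 162 promoters (0.493%) and in 0 of the 6. A match is a run of letters and was not tested for binding.

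Of the target genes, Id1 was higher in every mutator and the groups overlapped for Id3. Id1, an inhibitor of basic helix-loop-helix factors, had 9.13, 9.83, 10.0 and 8.32 CPM in control mice 205, 237, 239 and 246. The mutators had 10.5 CPM of Id1 in mouse 217, 11.4 in mouse 207, 12.3 in mouse 211, 12.9 in mouse 240, 13.3 in mouse 248, 13.7 in mouse 236 and 15.4 in mouse 249. The groups did not overlap, but the lowest mutator exceeded the highest control by little. Id1 was 1.37 times as high in the mutators, a log2 fold change of 0.45 (SE 0.09). Id1 lost its call where control mouse 237 or control mouse 246 was left out (3 of 10 members called in each case). Over all genes the calls then fell from 223 of 17983 to 50 of 18304 and to 93 of 18328.

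Id3, its close relative, had 19.97, 24.6, 19.8 and 21.9 CPM in control mice 205, 237, 239 and 246, and the lowest, median and highest mutator had 17.03, 22.7 and 24.0 CPM. The log2 fold change of Id3 was 0.02 (SE 0.08). Per length, Id1 was 0.672 ± 0.0873 times as high as Id3 in the controls (SD, n = 4) and 0.926 ± 0.234 times in the mutators (SD, n = 7), and here the groups overlapped.

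In the order of their level per length of transcript in the controls, the members ran from Bmpr2 (20.7 ± 2.21 CPM per kilobase) through Id3 (12.04 ± 1.24), Id1 (8.04 ± 0.659), Smad7 (6.40 ± 0.411), Eng (5.95 ± 0.907), Smad1 (4.34 ± 0.359), Acvrl1 (3.89 ± 0.388), Bmp6 (3.31 ± 0.417) and Chrdl1 (2.29 ± 0.0705) to Smad6 (0.678 ± 0.245), each a mean ± SD over 4 mice. Smad7 and Eng, Smad1 and Acvrl1, and Acvrl1 and Bmp6 were neighbours that differed by less than the sum of their SDs, and the other neighbours differed by more. In the mutators Eng was at 10.5 ± 1.01 CPM per kilobase (SD, n = 7), beside Id1 at 11.0 ± 1.39, and Chrdl1 at 1.42 ± 0.182, beside Smad6 at 1.62 ± 0.260.

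The rest of the pathway was taken from a list of 59 ligands, receptors, SMADs, antagonists, inhibitors and targets, of which 51 passed the count filter. None of the 51 reached an adjusted p-value of 0.05 in edgeR, where 1.24% of all genes did. In DESeq2 1 of the 51 did, where 615 of 17377 genes did. At an unadjusted p under 0.05 there were 13 of the 51 (25.5%, 8 higher and 5 lower), against 15.8% of all genes tested. The median log2 fold change of the 51 was 0.02, and 46 of them lay within 0.25 of zero. The range ran from -0.53 (SE 0.24) for Hfe2, the co-receptor hemojuvelin, to 0.46 (SE 0.20) for Bmp5, which had 474 and 855 reads over all mice. The 8 genes below the filter were Bmp8a, Bmp10, Gdf2, Gdf5, Gdf6, Chrdl2, Cer1 and Sost. Of the ligands of Acvrl1, Gdf2 (BMP9) had 10 reads and Bmp10 had 0 over the 11 libraries.

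**Figure D2:**
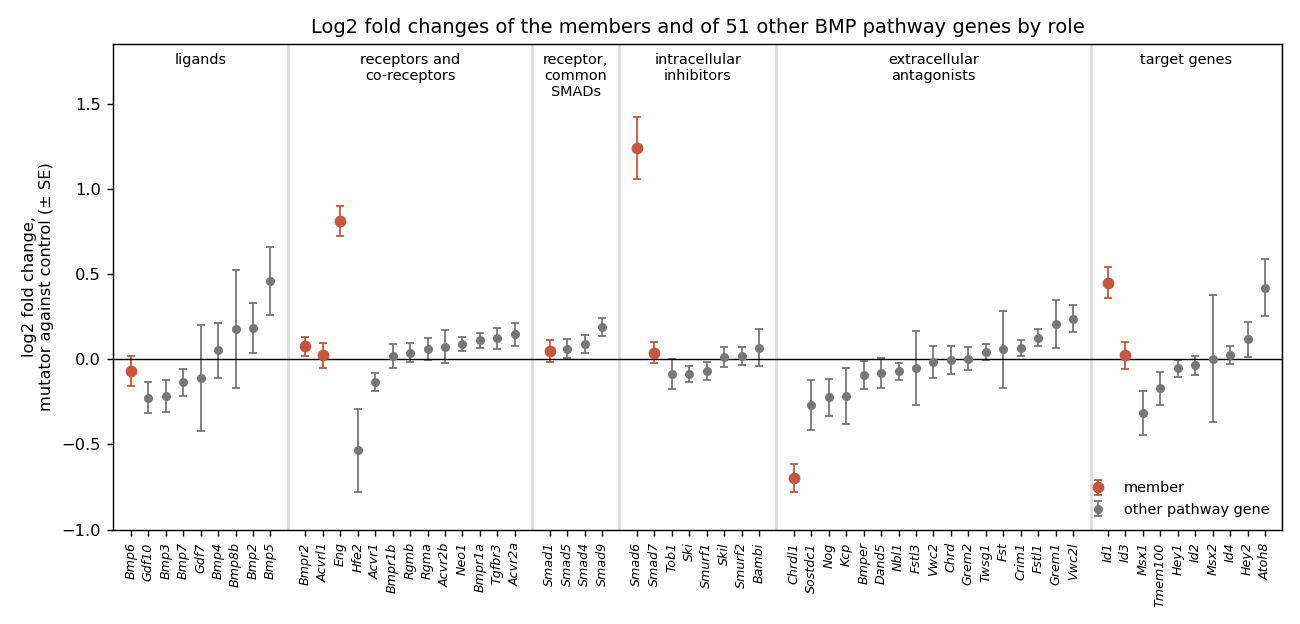
Log2 fold change, mutator against control, with its SE (vertical axis) for the 10 members in red and the 51 other BMP pathway genes in grey, grouped by role. Smad6 at 1.24, Eng at 0.81 and Chrdl1 at -0.70 lie outside the range of the 51 other genes, -0.53 to 0.46. Id1 at 0.45 lies inside that range, and the other targets run from -0.32 to 0.42.

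Among the other ligands the 3 with the highest level per length were Bmp3, Bmp7 and Gdf10. Bmp3 had a log2 fold change of -0.22, Bmp7 one of -0.14 and Gdf10 one of -0.23, with edgeR adjusted p-values between 0.221 and 0.425. Among the other receptors and co-receptors, Rgmb, Neo1 and Rgma, which bind BMP ligands or their receptors at the cell surface, had log2 fold changes of 0.04, 0.09 and 0.06. Bmpr1a, a type I receptor, was singled out after its values were seen: its CPM did not overlap between 66.1 to 70.8 in the controls and 71.2 to 79.0 in the mutators, with a log2 fold change of 0.11 (SE 0.04) and an edgeR adjusted p of 0.229.

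The receptor SMAD Smad9 was the gene of the list with the lowest adjusted p. Smad9 had 23.3, 21.3, 23.4 and 22.6 CPM in control mice 205, 237, 239 and 246 and between 24.4 and 27.9 CPM in the mutators, so the groups did not overlap. Its log2 fold change of 0.19 (SE 0.05) had an adjusted p of 0.0821 in edgeR and of 0.0279 in DESeq2, and over the alternatives the adjusted p ran from 0.0279 to 0.326. Smad5 and the common SMAD Smad4 had log2 fold changes of 0.06 (SE 0.05) and 0.09 (SE 0.05).

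Of the other extracellular antagonists, Nbl1, Crim1 and Twsg1 were the most abundant per length. Their log2 fold changes were -0.07, 0.06 and 0.04, each with an SE of 0.05. The 16 antagonists tested besides Chrdl1 ran from -0.27 to 0.24. They held 0 calls in edgeR, where 1.24% of all genes were called, and 0 in DESeq2, where 615 of 17377 were. At an unadjusted p under 0.05 in edgeR there were 2, where 15.8% of all genes passed. The intracellular inhibitors Ski, Tob1 and Smurf1 had log2 fold changes of -0.09, -0.09 and -0.07. The targets Id2, Id4 and Hey1, all of them more abundant per length than Id1 and Id3, had -0.03, 0.03 and -0.05. All 8 targets besides Id1 and Id3 ran from -0.32 to 0.42. These 8 held 0 calls in edgeR (1.24% of all genes) and 0 in DESeq2 (615 of 17377 genes). Of the 8, 2 had an unadjusted p under 0.05 in edgeR, where 15.8% of all genes did.

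The TGF-beta branch, which shares Smad4, Smad7 and the co-receptor Eng with the BMP branch, was represented by 16 genes, all of them tested. None was called in edgeR, where 1.24% of all genes were, and 4 had an unadjusted p under 0.05 (1 higher and 3 lower), where 15.8% of all genes did. The lowest adjusted p in edgeR was 0.242, and DESeq2 called 0, where it called 615 of 17377 genes.

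The exon bins show where along the members the reads lay. Counts per bin, a bin being a stretch of exon between the boundaries of all transcripts, were at hand for the 7 mutators and the 3 WT/WT controls. Eng overlaps its neighbour Ak1, the adenylate kinase of the cytosol, on the same strand of chromosome 2: Eng spans 32502115 to 32538189 and Ak1 32477278 to 32502325 of mm9. The authors' annotation therefore joined the 2 genes to 1 group of 51 bins, of which 31 belong to Eng alone, 18 to Ak1 alone and 2 to both.

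The difference of the merged group lay in the bins of Eng. Summed over the bins of Eng alone, WT/WT mice 205, 239 and 246 had 34.2, 31.5 and 28.6 CPM, and the mutators 52.7, 57.9 and 67.4 CPM as the lowest, median and highest value. Over the bins of Ak1 alone the WT/WT mice had 113, 127 and 123 CPM and the mutators 111, 115 and 124 CPM as the lowest, median and highest value. The groups were apart for Eng and overlapped for Ak1.

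Of the 27 Eng bins with enough reads, all 27 had a higher mean in the mutators, with log2 ratios of 0.47 to 1.15 and a median of 0.94, and in 26 the groups did not overlap. The lowest ratio belonged to bin 19, the first 87 bases of the gene, and the highest to bin 50, 535 bases near its end. Of the 13 Ak1 bins with enough reads the log2 ratios ran from -0.10 to 0.38 with a median of -0.04, and in 0 did the groups fail to overlap. The 2 shared bins were at 0.80 and 0.95. Over all bins tested, the groups did not overlap in 2.22% (1.06% higher and 1.16% lower), which is given for scale only, since the bins of Eng were part of the choice.

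**Figure D3:**
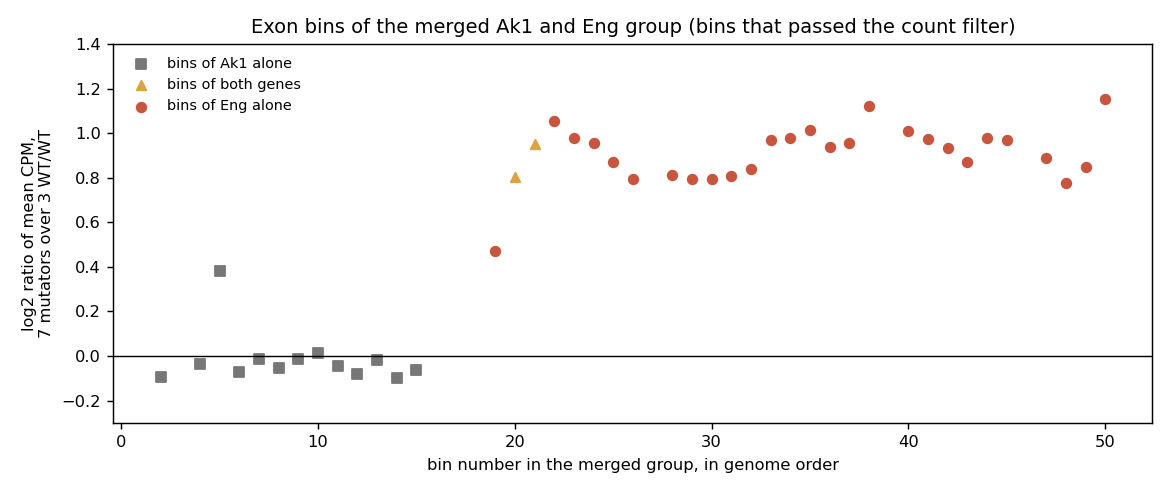
Log2 ratio of mean CPM, 7 mutators over 3 WT/WT controls (vertical axis), for each bin of the merged Ak1 and Eng group with enough reads, in genome order (horizontal axis). The Ak1 bins run from -0.10 to 0.38 and the Eng bins from 0.47 to 1.15, with the 2 shared bins at 0.80 and 0.95.

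In a fit of the usage of each bin against the rest of its group, 18 bins of the merged group passed an adjusted p of 0.05, all of them bins of Eng, where 0.0237% of all bins did. Such a fit sets the bins of Eng against those of the more abundant Ak1 and so restates the difference that led to the choice of Eng. Nothing is read from the count, and a change of exon use within Eng was not tested.

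Eng can also keep its last intron, which yields endoglin with a shorter cytoplasmic tail. That intron is bin 46, 139 bases long at chr2:32536818-32536956 of mm9, and 2 annotated transcripts contain it. Its ends are shown to identify it, with the first and the last 2 bases of the intron in capitals, on the plus strand.
donor end: tctattctcacacacGTgagtatcccaagc
acceptor end: acccacgcccctcAGgtggccccagcaagc

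The donor stretch is chr2:32536803-32536832 and the acceptor stretch chr2:32536942-32536971. The WT/WT mice 205, 239 and 246 had 11, 6 and 2 reads in the intron, and the mutators between 1 and 14. They were set against bin 47, the first 379 bases of the exon that follows. Per 100 reads of bin 47, the intron reads were 3.64, 4.23 and 3.85 in the WT/WT mice. The lowest, median and highest mutator had 0.685, 3.35 and 4.96. The groups overlapped, with 19 intron reads pooled over the WT/WT mice and 59 over the mutators, and a difference was not detectable at this depth.

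For the other called members the bins moved with the gene. Smad6 had 5 bins with enough reads, with log2 ratios of 1.30 to 1.74, and in all 5 the groups did not overlap. Id1 had 3 such bins at 0.48 to 1.17, of which 2 did not overlap. Chrdl1 had 16, from -1.10 to -0.36, with 9 that did not overlap. Over all bins tested, the groups did not overlap in 2.22%. The bins come from the same libraries as the gene counts that led to the choice of these members, so nothing is read from their counts.

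Chrdl1 is annotated with alternative 3′ ends, and the ratios of their bins are given side by side. The 3 bins at the 3′ end of 1 pair of annotated transcripts had log2 ratios of -0.55 to -0.36 and overlapping groups. Another 3 bins belong to the other pair, which ends elsewhere, and 1 of them (bin 7) lies in only 1 transcript of that pair. These 3 bins had -1.10 to -0.77 and groups that did not overlap. The 8 bins common to all 4 transcripts ran from -0.92 to -0.46. Of the 16 bins, 0 passed the test of usage within the gene.

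**Figure D4:**
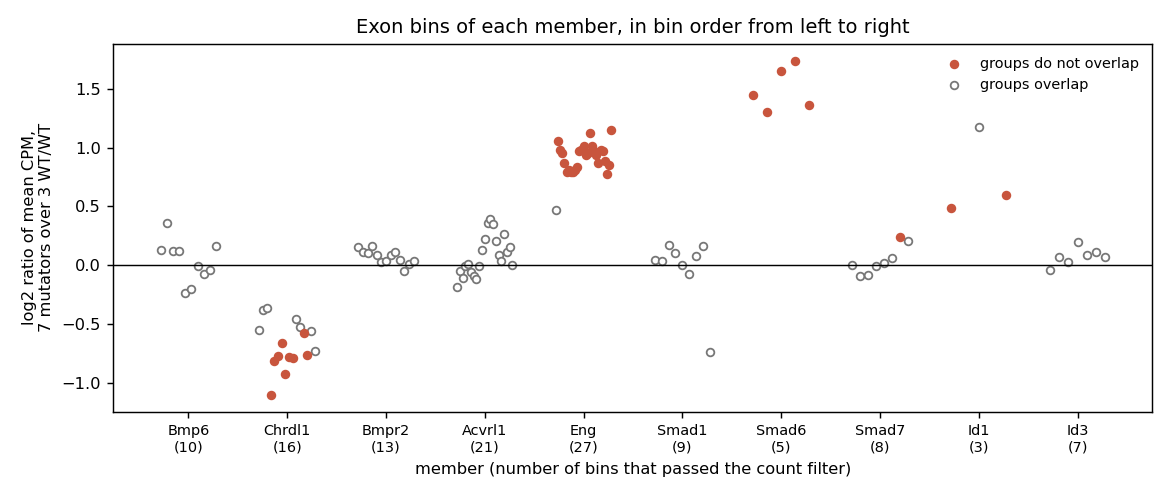
Log2 ratio of mean CPM, 7 mutators over 3 WT/WT controls (vertical axis), for each exon bin with enough reads of each member (horizontal axis, number of bins in brackets), with bins whose groups do not overlap in red. The bins of Smad6 run from 1.30 to 1.74 and those of Eng from 0.47 to 1.15, while those of Chrdl1 run from -1.10 to -0.36.

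Usage of bins within a gene does not depend on the level of the gene and was tested for the 9 members other than Eng. Of their 92 bins, 0 had an adjusted p under 0.05 in edgeR's diffSpliceDGE, where 0.0237% of all 206930 bins did, and 1 had an unadjusted p under 0.05, against 1.9% of all bins. That bin was the first exon of Smad1 (bin 9, 266 bases), with a log2 usage of -0.76 (adjusted p = 0.927). It held 1.91%, 4.10% and 2.91% of the bin counts of Smad1 in WT/WT mice 205, 239 and 246 and 1.25% to 2.09% in the mutators. The result depended on single WT/WT mice. Without mouse 205 this bin passed, with a log2 usage of -1.16 (diffSpliceDGE adjusted p = 0.0343), in a setting where 186 of all bins passed against 49 with all mice. Without mouse 239, 0 of the member bins had an unadjusted p under 0.05, and the lowest was 0.0771, for a bin of Bmp6. With all mice, limma called 0 of the 92 member bins, where it called 25 of all 206930 bins. It had 2 member bins at an unadjusted p under 0.05. The share of all bins under that cut in limma was not computed, so nothing is read from this count.

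Whether members vary together was asked among the 7 mutators, where the difference between the groups plays no part. Of the 45 pairs of members, 0 had an adjusted p under 0.05 by exact two-sided permutation of Pearson's r, and 2 had an unadjusted p under 0.05. The correlation of Id1 and Id3 was negative (r = -0.83, exact permutation p = 0.0127, adjusted p = 0.571, rho = -0.89 with an exact permutation p of 0.0123, 7 mice), and r was -0.96 without the 2 mice farthest in Id1. That of Id1 and Bmp6 was positive (r = 0.77, exact permutation p = 0.0440, adjusted p = 0.717, rho = 0.71 with an exact permutation p of 0.0881), and r was 0.76 without the 2 farthest mice.

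Smad6 and Eng had r = 0.58 (exact permutation p = 0.168, adjusted p = 0.822, rho = 0.68 with an exact permutation p of 0.110), and r = 0.37 without the 2 farthest mice. Chrdl1 had r = 0.24 with Eng and r = 0.22 with Smad6, each with an exact permutation adjusted p of 0.927. Over the 45 pairs 28 had r above 0, and the median r was 0.11. With 7 mice and 45 pairs even r = -0.83 (Id1 and Id3) did not pass, so relations of that strength or weaker were not detectable. All values of a mouse come from 1 library.

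The genes most like Smad6, Eng and Chrdl1 in their variation from mouse to mouse, once each group was centred on its mean, were found among 14690 genes. For Smad6 they were 4930563E22Rik (r = 0.92), Ppil6 (r = 0.91) and Cd209c (r = 0.89) over 11 mice. For Eng they were Rarb (r = 0.89) and Abca4 (r = 0.88). For Chrdl1 they were Tnfaip8 (r = 0.91), Aqp1 (r = 0.88) and Dlc1 (r = 0.88). These values are a description, as the highest of many over 11 libraries, and each of these 8 genes differed between the groups by less than 0.3 on the log2 scale.

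Because Eng, Acvrl1, Smad6 and Id1 are known from endothelial cells, their levels are set beside 12 endothelial markers. None of the 12 was called in edgeR, where 1.24% of all genes were. DESeq2 called 2 (Flt1 and Kdr), where it called 615 of 17377 genes. Of the 12, 5 had an unadjusted p under 0.05 in edgeR (3 higher and 2 lower), where 15.8% of all genes did. The median log2 fold change of the 12 was 0.08. The log2 fold changes ran from -0.29 for Tie1 to 0.84 for Kdr, the VEGF receptor, which had an edgeR adjusted p of 0.0705. The summed CPM of the 12 was 346 to 424 in the controls and 388 to 480 in the mutators.

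Expressed as a percentage of that sum, which does not include the members, Eng was 4.46% to 7.19% in the controls and 7.73% to 11.3% in the mutators, without overlap. Smad6 was 0.283% to 0.778% and 0.785% to 1.39%, which also did not overlap, by a narrow margin set by mutator mouse 249. Id1 was 1.96% to 2.85% and 2.66% to 3.21%, which overlapped. Acvrl1 was 3.86% to 4.98% and 3.62% to 4.29%, which overlapped as well. These ratios use the levels that led to the choice of the members, the log2 fold changes of the markers had both signs, and the part of endothelial cell number in the levels was not tested.

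**Figure D5:**
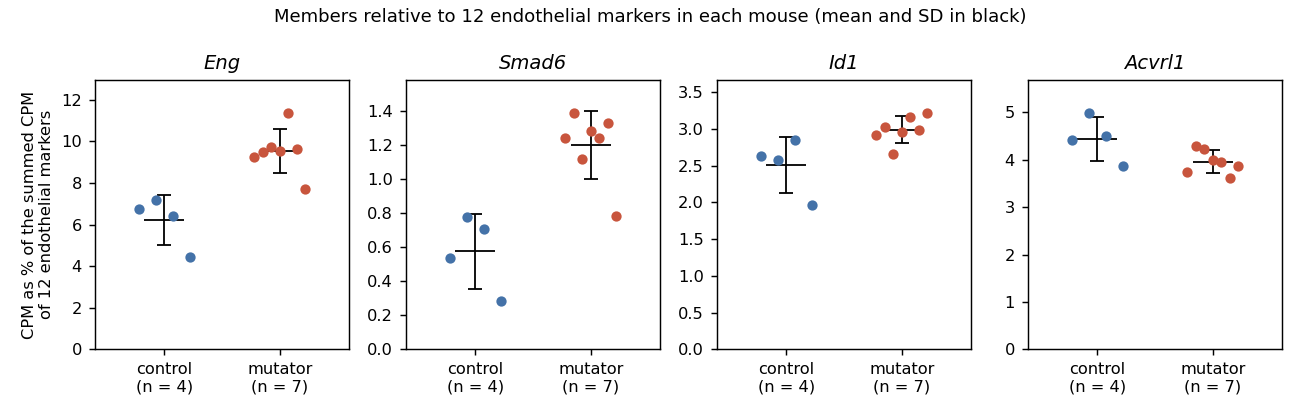
CPM of Eng, Smad6, Id1 and Acvrl1 as a percentage of the summed CPM of 12 endothelial markers (vertical axes, from 0) in each of 4 control and 7 mutator mice, with the mean and SD in black. Eng lies at 4.46% to 7.19% in the controls and at 7.73% to 11.3% in the mutators, and Acvrl1 overlaps between the groups.

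Of the other cell type markers, edgeR called 2 of the 61 tested outside the endothelial list, where it called 1.24% of all genes. Abcc9, a potassium channel subunit of pericytes, had 10.1 to 12.02 CPM in the controls and 14.9 to 19.8 in the mutators (log2 fold change 0.64, adjusted p = 0.000433), while the summed pericyte list was 209 to 229 and 207 to 243 CPM. Ppbp, a platelet gene, had 0.0160 to 0.182 CPM in the controls and 0.224 to 1.23 in the mutators (log2 fold change 3.83, edgeR adjusted p = 0.00483), with the summed platelet list at 8.25 to 10.9 and 7.84 to 12.6 CPM. The 9 markers of astrocytes, a main source of Chrdl1 in the brain, summed to 4246 to 4610 CPM in the controls and 4030 to 4390 in the mutators. Of these 9, edgeR called 0 and DESeq2 called 2 (Gjb6 and Slc1a2), where DESeq2 called 615 of 17377 genes. At an unadjusted p under 0.05 in edgeR there were 3, where 15.8% of all genes passed. Haemoglobin and Alas2 RNA summed to a median of 84.7 CPM in the controls and 128 in the mutators, with overlapping groups. The part of such differences in the levels of the members was not tested.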

How the data were processed

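The authors prepared poly(A) libraries with a kit that does not mark strand, sequenced paired 100-base reads, aligned them to mm9 with TopHat2 2.0.6, counted them per gene with HTSeq 0.5.3p9 and deposited raw counts per gene for 11 mice and counts per exon bin for 10. Deposited tables of their own comparisons, with fold changes and p-values, were not used. For genes, edgeR 4.0.16 was run in R 4.3.3 with its robust quasi-likelihood test, TMM factors and the filter filterByExpr, with Benjamini-Hochberg adjustment over all genes, and DESeq2 1.42.0 as an alternative. Exon bins were tested with diffSpliceDGE and, as an alternative, with limma 3.58.1. Standard errors come from the log2 fold change and its F statistic. CPM use the TMM factors, and values per length divide by the exons of GENCODE vM1 on mm9. Exon bins were placed on genes by rebuilding the flattened annotation; for Smad7 the bins could not be matched.

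The members and gene lists were chosen with earlier results of these data known. Named were all members, the 3 genes of each other pathway role with the highest level per length, and the 3 genes most like each of Smad6, Eng and Chrdl1, of which 1 is not reported here; the extremes of a list and Bmpr1a were named after their values were seen. Each mouse is 1 sample. Reads shared by overlapping genes are uncertain for Eng with Ak1 and Fpgs, Acvrl1 with Gm16031 and Bmp6 with Txndc5. In a simulation of the gene comparison that changed 200 genes, edgeR found 200 and made 16 false calls among 17975 genes, and DESeq2 found 199 and made 38 among 17405. In one of the bin comparison that changed 200 bins of 34924, diffSpliceDGE found 174 and made 69 false calls, and limma found 194 and made 16. The changed genes and bins were well counted, and the same spread between mice was set for all. For the changed genes the median absolute log2 fold change in edgeR was 1.01. Smaller changes, such as that of Id1, and larger spreads were not simulated, so these counts do not apply to them.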

Additional observations from a re-analysis of the deposited data

Results flagged for a closer look

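Among the 10 members and the 18 other pathway genes named by rule, each group of mice was looked at for a mouse far from the others, 56 groups in all. In 2 of them the gap to the nearest mouse, as a share of the range of the group, was above the limit that chance exceeds in about 1 of 20 groups. Id3 in mutator mouse 249 was 17.03 CPM, with the nearest mutator at 21.0 and the highest at 24.0 CPM, a gap of 0.569 of the range. Ski, an intracellular inhibitor, in control mouse 237, the WT/D257A mouse, was 164 CPM, with the nearest control at 150.02 and the lowest at 148 CPM, a gap of 0.850 of the range. About 2.8 such groups would come from chance.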

How the results depend on the processing

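The members were chosen on this difference, so their calls over the alternatives are a description and no support. Smad6, Eng and Chrdl1 had an adjusted p under 0.05 in edgeR or DESeq2 under the 18 alternatives (DESeq2, RLE or upper-quartile scaling, 2 other count filters, WT/WT controls only, log2 total count as a covariate, and each mouse left out). Their log2 fold changes ran from 1.09 to 1.42, from 0.73 to 0.90 and from -0.75 to -0.65. Id1 ran from 0.40 to 0.49 and kept its call in 15, all but WT/WT controls only, without control mouse 237 (the same mice) and without control mouse 246. Without mouse 237 the calls over all genes were 50 of 18304, and without mouse 246 they were 93 of 18328. The calls among members ranged from 3 to 4 without single mice. Other BMP pathway genes had 1 call with DESeq2 (Smad9) and 0 in the other 17 settings, and the TGF-beta branch had 0 in all. Of the 73 marker genes tested, DESeq2 called 9, where it called 615 of 17377 genes. Without single mice edgeR called 2 to 7 of the 73, against 2 with all mice (223 of 17983 genes). Without control mouse 205 there were 5 (412 of 18179 genes), and without mutator mouse 217 there were 7 (318 of 18026). Without mutator mouse 207 and without mutator mouse 248 there were 4 each (274 of 17852 and 130 of 17860). Without mutator mouse 249 there were 3 (239 of 18034). The cause was not tested. Bin usage within members had 0 to 1 calls without single mice (1 without control mouse 205), and pairs of members had 0 in every setting. No uncalled member moved by more than its spread between mice, and Smad7, Id3 and Acvrl1, all near zero, changed sign in 1, 3 and 4 settings.

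No paired analysis was possible because the labels give the mice no numbers shared between the groups. Over all genes the calls ranged from 50 to 412 without single mice and were 615 with DESeq2, against 223. In the smallest library, 33 reads of Smad6 limit its precision, and intervals cover counting error and spread between these mice only.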
